A study of Mus musculus with 14 samples.

Results

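The RNA levels of 7 genes of lipoprotein handling were described: the apolipoproteins Apoe, Apoc1, Apod, Apob and Apoa1, the secreted chaperone clusterin (Clu, also called apolipoprotein J) and the receptor LRP1 (Lrp1). They were chosen by name, and all 7 were found among the 21853 protein-coding genes of the deposited table. The libraries came from the ovaries and uteruses of female C57BL/6J mice aged 28 weeks, 3 in the old control (OC) group and 4 in the old treatment (OT) group, which gave 14 libraries from 7 mice. OT mice had received AMSC-CM, the concentrated culture medium of mesenchymal stem cells from human amnion, mixed equally from 3 donors, in the tail vein, 1 µL per g of body weight in 6 injections 4 days apart. OC mice had received normal saline by the same route. All mice of both groups had first been given pregnant mare serum gonadotropin and, 48 h later, human chorionic gonadotropin, 10 IU each. Values were FPKM, fragments scaled to the length of the transcript and to all mapped fragments of the library, so levels of different genes could be set side by side per length. Tissue of mixed cell types was sequenced, so fewer cells of a type and less RNA per cell cannot be told apart. Neither the labels nor the methods say which parts of the organs were taken.

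Apolipoproteins are the protein parts of lipoproteins, the particles that carry cholesterol and triglycerides outside cells. ApoE, which macrophages, liver and steroid-producing cells make in quantity, binds receptors of the LDL receptor family and so guides particles into cells. ApoC-I, the product of a small gene beside Apoe, slows that uptake and the lipases that empty the particles. ApoA-I is the main protein of HDL and ApoB the structural protein of LDL and VLDL, and both are made mostly by liver and intestine. ApoD is a lipocalin of stroma, glia and adipose tissue that binds small lipids. Clusterin circulates in HDL and holds misfolded proteins in solution outside cells. LRP1 is a large endocytic receptor that takes up ApoE-carrying remnants, proteinase-inhibitor complexes and other ligands. In the ovary, lipoproteins supply the cholesterol from which progesterone and other steroids are made.

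In mm10, Apoe (ENSMUSG00000002985.16) lies at chr7:19696109-19699188 and Apoc1 (ENSMUSG00000040564.14) at chr7:19689481-19692660, both on the minus strand with 3448 bases between them. Apod (ENSMUSG00000022548.14) lies at chr16:31296192-31314808 on the minus strand, Clu (ENSMUSG00000022037.15) at chr14:65968483-65981547 on the plus strand and Lrp1 (ENSMUSG00000040249.15) at chr10:127538161-127621148 on the minus strand. Apoa1 (ENSMUSG00000032083.8) lies at chr9:46228580-46230466 and Apob (ENSMUSG00000020609.14) at chr12:7977648-8016835, both on the plus strand. The exons of Apoc1 add up to 744 bases, against 2138 for Apoe and 17717 for Lrp1, so the same FPKM rests on far fewer fragments in Apoc1. Promoter sequence from RefSeq (GRCm38.p6) was matched for 5 of the 7 genes, with no entry for Apoc1 and Clu. The 250 bases before the annotated start are shown for the most abundant member (Apoe, at the first of its 3 RefSeq starts), for Apod, which differed between the groups in the uterus, and for Lrp1, the steadiest member, each written 5′ to 3′ on the strand of its gene:
Apoe, chr7:19699189-19699438: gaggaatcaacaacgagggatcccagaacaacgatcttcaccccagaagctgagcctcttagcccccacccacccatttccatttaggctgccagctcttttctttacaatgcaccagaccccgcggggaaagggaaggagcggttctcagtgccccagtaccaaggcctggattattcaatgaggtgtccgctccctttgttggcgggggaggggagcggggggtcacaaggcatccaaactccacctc
Apod, chr16:31314809-31315058: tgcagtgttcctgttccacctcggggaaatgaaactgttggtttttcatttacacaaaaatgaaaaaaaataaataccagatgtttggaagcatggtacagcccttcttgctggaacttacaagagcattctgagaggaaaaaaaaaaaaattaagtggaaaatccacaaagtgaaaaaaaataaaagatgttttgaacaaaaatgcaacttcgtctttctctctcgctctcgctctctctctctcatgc
Lrp1, chr10:127621149-127621398: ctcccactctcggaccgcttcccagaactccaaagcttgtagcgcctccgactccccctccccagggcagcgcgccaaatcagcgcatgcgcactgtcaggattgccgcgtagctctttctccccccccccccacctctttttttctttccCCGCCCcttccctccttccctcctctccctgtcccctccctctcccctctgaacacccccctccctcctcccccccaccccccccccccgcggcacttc

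These stretches differed in base composition. G and C made up 57.2% of the Apoe stretch, 36.4% of the Apod stretch and 67.2% of the Lrp1 stretch, against a median of 52.0% over 27025 gene promoters of the same length. Capitals in the Lrp1 stretch mark a GC box on the other strand, the only match in the 3 stretches among the motifs searched on both strands. The GC box searched, GGGCGG, was found in 33.0% of all promoters of this length. A TATA box, with the letters TATAAA, was found in 13.0% of them. The letters CCAAT were found in 34.5% and the E-box CACGTG in 6.04%. A pair of nuclear receptor half-sites was far rarer, at 0.037% for AGGTCANAGGTCA and 0.0111% for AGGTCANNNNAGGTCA, the spacing that liver X receptors bind. No match says only that these letters were not in these windows.

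The libraries showed the tissue on their labels. The summed level of 8 genes of theca, luteal and other steroid-producing cells ran from 5320 to 6668 FPKM in ovaries and from 12.9 to 21.3 FPKM in uteruses, and 6 smooth muscle genes ran from 820.0 to 2411 FPKM in ovaries and from 6466 to 11820 FPKM in uteruses. The OT1 uterus stood apart, with a total of 577494 FPKM against 425875 to 471907 FPKM in the other uteruses. Its 15 adipocyte markers summed to 17320 FPKM, against 2019 to 3700 FPKM in the other OT uteruses and 150.2 to 441 FPKM in OC uteruses, so calls of members and other lipoprotein genes in the uterus are given with and without it. Uteruses of the OT group also held more RNA of stratified epithelium (8 markers, 45.1 to 802 FPKM against 2.93 to 13.9 FPKM in OC uteruses). The depth of the libraries is unknown, because FPKM are already scaled to it.

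Apoe was the most abundant member in every library. It ranked between 18 and 64 among the 21853 genes in ovaries and between 54 and 150 in uteruses. In OC ovaries the members followed in the order Apoe, Clu, Lrp1, Apoc1, Apoa1 and Apod, and no neighbours in this order overlapped. Clu ran from 226 to 329 FPKM there, Lrp1 from 134 to 147 FPKM, Apoc1 from 4.60 to 7.91 FPKM, Apoa1 from 2.40 to 3.24 FPKM and Apod from 0.948 to 2.11 FPKM. In OC uteruses Lrp1 (110.1 to 118 FPKM) came after Apoe (384 to 413 FPKM) and lay above Clu (34.5 to 44.7 FPKM), followed by Apod (4.55 to 5.54 FPKM) and Apoc1 (0 to 3.68 FPKM). In OT uteruses this order was blurred, since the range of Apoc1, 14.1 to 122 FPKM, overlapped those of Lrp1 (99.0 to 129 FPKM), Clu (35.1 to 71.9 FPKM) and Apod (5.81 to 26.8 FPKM). Apob stayed at or under 0.274 FPKM in all 14 libraries. The 7 genes together held 0.262% to 0.346% of the total FPKM of an ovary library and 0.12% to 0.244% of that of a uterus library.

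**Figure D1:**
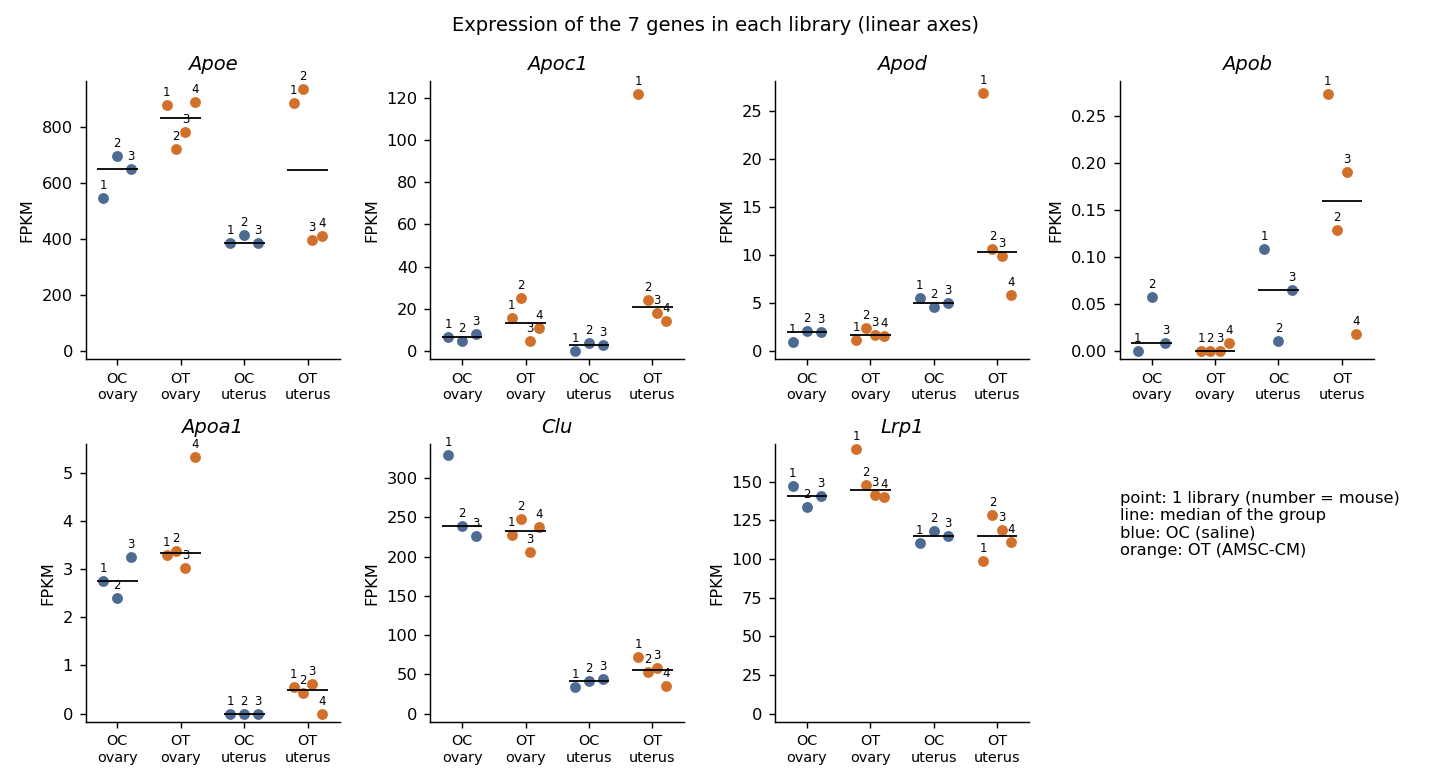
FPKM of each of the 7 genes in the 14 libraries on linear axes, 1 point per library numbered by mouse, with blue for OC, orange for OT and a line at the group's median. Apoe is higher in all 4 OT ovaries than in the 3 OC ovaries, OT1 and OT2 stand above the other uteruses for Apoe, and the OT1 uterus is the highest for Apoc1 at 122 FPKM.

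The first question was whether AMSC-CM changed these genes within a tissue. OT was compared with OC by limma on log2(FPKM + 0.1), for genes whose 7 libraries of the tissue averaged 0.5 FPKM or more, and a gene was called at the cutoffs of the study, 2-fold or more with an unadjusted p no higher than 0.05. The study applied its cutoffs with another program, Cuffdiff, so its calls can differ from those here. In the uterus 2 of the 5 members tested were called, Apoc1 and Apod, both higher in the OT group, against 2.9% of all 14151 genes called and 2.23% called higher. In the ovary none of the 6 members tested was called, against 0.451% of 14415 genes. Apob in both tissues and Apoa1 in the uterus were under the minimum. After Benjamini-Hochberg adjustment of the limma p, 0 genes passed 0.05 in either tissue, and the smallest adjusted p was 0.477 for the ovary and 0.266 for the uterus. Without adjustment, p was under 0.05 for 650 genes of the ovary (4.51%) and 1160 of the uterus (8.2%). All calls below are therefore at unadjusted p. Over all genes tested, the median log2 difference was -0.01 for the ovary and 0.01 for the uterus.

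Apoe, the ligand, was higher in the OT ovaries by less than the fold cutoff. In the ovary Apoe was at 546, 695 and 648 FPKM in OC1 to OC3 and at 877, 718, 782 and 886 FPKM in OT1 to OT4. Every OT ovary lay above every OC ovary, which was seen for 2.78% of all genes tested in the ovary. The means were 629.7 ± 76.6 FPKM (SD, n = 3) and 816 ± 80.3 FPKM (SD, n = 4), and the log2 difference by limma was 0.38 (standard error 0.12, 95% interval 0.11 to 0.64, unadjusted p = 0.0119, adjusted p = 0.997). Without OC1, the lowest ovary, it was 0.28 with an unadjusted p of 0.0545 by limma.

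In the uterus Apoe was at 385, 413 and 384 FPKM in OC1 to OC3 and at 883, 935, 395 and 409 FPKM in OT1 to OT4. OT1 and OT2 were far above every other uterus, while OT3 and OT4 lay within the range of the OC group. The log2 difference of 0.62 (standard error 0.34, 95% interval -0.16 to 1.40, unadjusted p = 0.106 by limma) was not called. It was 0.44 without OT1 and 0.41 without OT2. Of 13 macrophage markers, genes of a cell type that makes ApoE, the sum was 395, 463 and 440 FPKM in OC1 to OC3 uteruses and 843, 1440, 493 and 459 FPKM in OT1 to OT4, so that OT1 and OT2 were again the highest. In the ovary this sum ran from 335 to 449 FPKM in OC and from 436 to 619 FPKM in OT libraries. None of the 13 markers was at 0 in any library. In the ovary 0 of the 13 were called, with 5 at an unadjusted p under 0.05 by limma. Over all genes tested there these shares were 0.451% and 4.51%. In the uterus 1 was called (Cd163, log2 difference 1.39, unadjusted p = 0.0202 and adjusted p = 0.55 by limma), against 2.9% of all genes. The part of macrophage RNA in the Apoe values was not tested.

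Apoc1 gave the largest difference of the members and rose in the OT uteruses. In the uterus Apoc1 was listed at 0 in OC1 and was at 3.68 and 2.62 FPKM in OC2 and OC3, and it was at 122, 24.0, 18.0 and 14.1 FPKM in OT1 to OT4. Every OT uterus lay above every OC uterus, as did 6.46% of all genes tested there. The log2 difference by limma was 4.87 (standard error 1.29, 95% interval 1.90 to 7.83, unadjusted p = 0.00534, adjusted p = 0.485), a fold change of 29.2 on the log2(FPKM + 0.1) scale. The size depends on the library listed at 0 and on the constant added. The ratio of the group means was 21.2, the log2 difference was 3.58 with 1 FPKM added and 6.00 with 0.01 FPKM added, 3.20 without OC1 and 4.18 without OT1, and Apoc1 was called in each case.

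In the ovary Apoc1 was at 6.39, 4.60 and 7.91 FPKM in OC1 to OC3 and at 15.5, 25.2, 4.72 and 10.7 FPKM in OT1 to OT4. OT3 lay within the OC range and the other OT ovaries above it. The log2 difference of 0.94 (standard error 0.48, 95% interval -0.17 to 2.04) was not called (unadjusted p = 0.0872, adjusted p = 0.997 by limma). Without OT3 it was 1.37 with an unadjusted p of 0.00281 by limma, and was called. The paper, which used Cuffdiff, lists Apoc1 among the genes higher in the OT group in both the ovary and the uterus. Apoc1 and Apoe did not keep a fixed ratio. Apoc1 amounted to 0.661% to 1.22% of Apoe in OC ovaries and to 1.77%, 3.50%, 0.604% and 1.21% in OT1 to OT4 ovaries. In uteruses it amounted to at most 0.892% of Apoe in the OC group and to 13.8%, 2.57%, 4.55% and 3.44% in OT1 to OT4.

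The adipocyte markers rose in OT uteruses as Apoc1 did, but the order of the OT libraries was not the same. The list was chosen with results of these data known, and its counts are a description. In the uterus all 15 were called higher in OT mice, against 2.23% of all genes tested there. Among them were Adipoq (adiponectin), Plin1 (a lipid droplet coat protein) and Cidec (a lipid droplet fusion protein). The sum of the 15 was 150.2, 441 and 408 FPKM in OC1 to OC3 and 17320, 2019, 3700 and 2059 FPKM in OT1 to OT4. The OC1 uterus, where Apoc1 was listed at 0, had the lowest sum and the OT1 uterus the highest. Among OT uteruses, OT2 was second for Apoc1 and had the lowest sum. In the ovary 7 of the 15 were called higher, against 0.368% of all genes tested there. The sum was 377, 331 and 504 FPKM in OC1 to OC3 and 2789, 2047, 398 and 739 FPKM in OT1 to OT4. OT3 lay within the OC range as for Apoc1, while Apoc1 was highest in OT2 and the sum in OT1. No adipocyte marker was at 0 in any library. Aqp7, counted among them, had OC means under the 0.5 FPKM minimum (0.291 FPKM in the uterus and 0.352 FPKM in the ovary). The macrophage sum given above for Apoe was highest in the OT2 uterus. The sum of 5 plasma cell markers ran from 7.45 to 10.9 FPKM in OC and from 15.9 to 109 FPKM in OT uteruses. The stratified epithelium markers given above were higher there too. The part of these cells in the Apoc1 values was not tested.

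**Figure D2:**
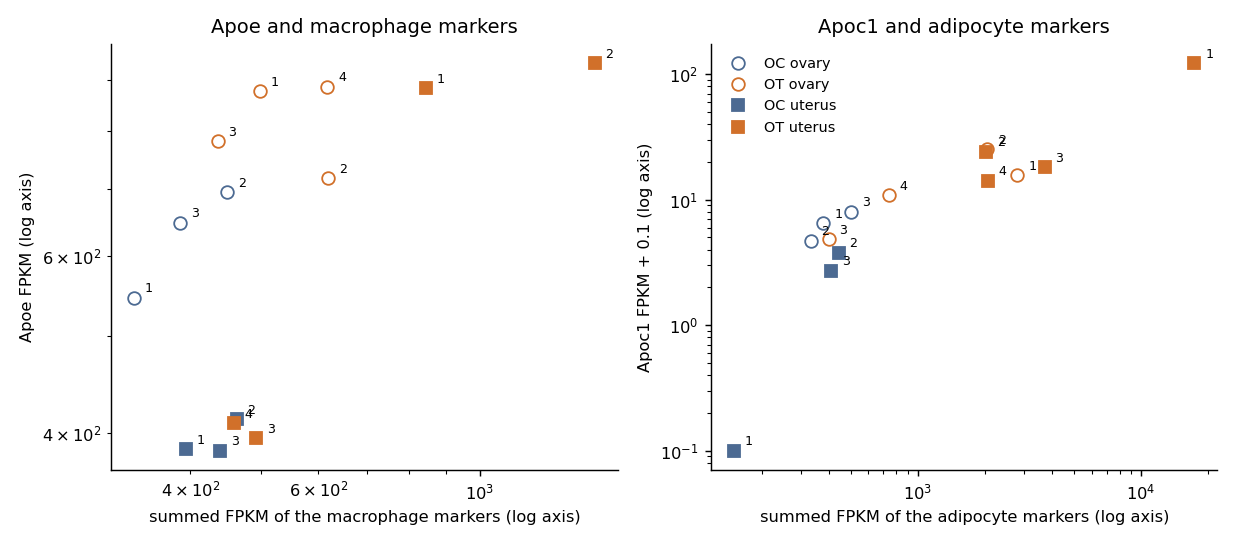
Each point is 1 of the 14 libraries, numbered by mouse, on log axes. The left plot sets Apoe against the summed FPKM of 13 macrophage markers and the right plot sets Apoc1 + 0.1 FPKM against the summed FPKM of 15 adipocyte markers. Among the uteruses, OT1 and OT2 are highest on both axes on the left, and the OT1 uterus is highest and the OC1 uterus lowest on both axes on the right. Among the OT uteruses on the right, OT2 is second for Apoc1 and lowest for the adipocyte markers.

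Apod, the lipocalin, rose in the OT uteruses, a call that was lost when any of 5 of the 7 uteruses was left out. Apod was at 5.54, 4.55 and 5.02 FPKM in OC1 to OC3 uteruses and at 26.8, 10.6, 9.92 and 5.81 FPKM in OT1 to OT4. All OT uteruses lay above all OC uteruses, OT1 far above and OT4 just above. The means were 5.04 ± 0.496 FPKM (SD, n = 3) and 13.3 ± 9.27 FPKM (SD, n = 4), and the log2 difference was 1.16 (standard error 0.44, 95% interval 0.14 to 2.18, unadjusted p = 0.031, adjusted p = 0.57 by limma), a fold change of 2.23. Without OT1 the log2 difference was 0.75, under the fold cutoff, with an unadjusted p of 0.0167 by limma. The unadjusted p by limma passed 0.05 without OC1 (0.0548), OC2 (0.0815), OC3 (0.0678) or OT2 (0.0524), with log2 differences of 1.09 to 1.23.

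In the ovary Apod was at 0.948, 2.11 and 1.94 FPKM in OC1 to OC3 and at 1.17, 2.37, 1.70 and 1.56 FPKM in OT1 to OT4. The groups overlapped, and the log2 difference was 0.06 (95% interval -0.70 to 0.82 by limma). Cells that are known to express Apod include adipocytes, nerve sheath cells and fibroblasts. The adipocyte markers given above for Apoc1 were all called higher in OT uteruses, and their sum was highest in the OT1 uterus, as Apod was. The 6 nerve sheath markers summed to 11.3 to 15.2 FPKM in OC and 17.3 to 22.3 FPKM in OT uteruses. Of the 5 tested in the uterus S100b (log2 difference 1.39) and Cdh19 (1.23) were called, against 2.23% of all genes called higher there. None of the 3 tested in the ovary was called. The OC means of S100b and Cdh19 in the uterus were 0.412 and 0.455 FPKM, so both passed the 0.5 FPKM minimum only through the OT group. The 6 fibroblast markers summed to 4051 to 4226 FPKM in OC and 4085 to 5504 FPKM in OT uteruses, with none called. The part of these cells in the Apod values was not tested.

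Apoa1 and Apob, the HDL and LDL proteins, were scarce. In the ovary Apoa1 was at 2.76, 2.40 and 3.24 FPKM in OC1 to OC3 and at 3.30, 3.38, 3.02 and 5.33 FPKM in OT1 to OT4. OT4 was the highest and OT3 lay within the OC range, and the log2 difference of 0.39 (standard error 0.22, 95% interval -0.11 to 0.88, unadjusted p = 0.112 by limma) was not called and was 0.21 without OT4. In the uterus Apoa1 was listed at 0 in all 3 OC libraries and in OT4, and was at 0.550, 0.418 and 0.620 FPKM in OT1 to OT3. An exact two-sided permutation test of the log2 values gave p = 0.229, where 3 against 4 libraries can reach 0.0571 at the lowest.

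Apob was listed at 0 in OC1, OT1, OT2 and OT3 ovaries and reached 0.0575 FPKM in the OC2 ovary. In uteruses it was at 0.109, 0.0105 and 0.0649 FPKM in OC1 to OC3 and at 0.274, 0.129, 0.190 and 0.0178 FPKM in OT1 to OT4, and the groups overlapped (exact permutation p = 0.286). In the ovary the exact permutation p was 0.514. Of 10 hepatocyte markers 3 could be tested in the uterus. Alb (albumin, log2 difference 3.17) and Ahsg (fetuin-A, 2.77) were called, against 2.23% of all genes called higher there. Their means were 0.220 and 0.0564 FPKM in OC and 3.98 and 1.048 FPKM in OT uteruses. Both thus passed the 0.5 FPKM minimum only through the OT group, so the count is no more than a description. Tat, a marker not tested, had a mean of 0.279 FPKM in OC and 0.181 FPKM in OT uteruses. The summed level of the 10 was 1.01 to 1.12 FPKM in OC uteruses and 10.0, 3.00, 11.9 and 1.69 FPKM in OT1 to OT4. Between 1 and 7 of them were at 0 in a uterus library. Their part in the Apoa1 and Apob values was not tested.

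Clu was abundant in the ovary and its groups overlapped in both tissues. In the ovary Clu was at 329, 239 and 226 FPKM in OC1 to OC3 and at 227, 248, 205 and 238 FPKM in OT1 to OT4. OC1 was the highest ovary and the other libraries lay close together. The log2 difference was -0.19 (standard error 0.13, 95% interval -0.49 to 0.11, unadjusted p = 0.187 by limma) and was -0.02 without OC1. In the uterus Clu was at 34.5, 42.1 and 44.7 FPKM in OC1 to OC3 and at 71.9, 53.3, 58.4 and 35.1 FPKM in OT1 to OT4. OT4 lay within the OC range and the other OT uteruses above it, with a log2 difference of 0.40 (standard error 0.24, 95% interval -0.15 to 0.94, unadjusted p = 0.133 by limma), and 0.25 without OT1.

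Lrp1, the receptor, was the steadiest of the 7 genes, with a coefficient of variation of 8.23% over the 7 ovaries and 7.99% over the 7 uteruses. In the ovary Lrp1 was at 147, 134 and 141 FPKM in OC1 to OC3 and at 171, 148, 141.5 and 140.1 FPKM in OT1 to OT4. In the uterus it was at 110.1, 118 and 115 FPKM in OC1 to OC3 and at 99.0, 129, 119 and 111 FPKM in OT1 to OT4. The groups overlapped in both tissues. The log2 difference was 0.09 (95% interval -0.10 to 0.28) in the ovary and 0.00 (95% interval -0.30 to 0.29) in the uterus by limma.

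**Figure D3:**
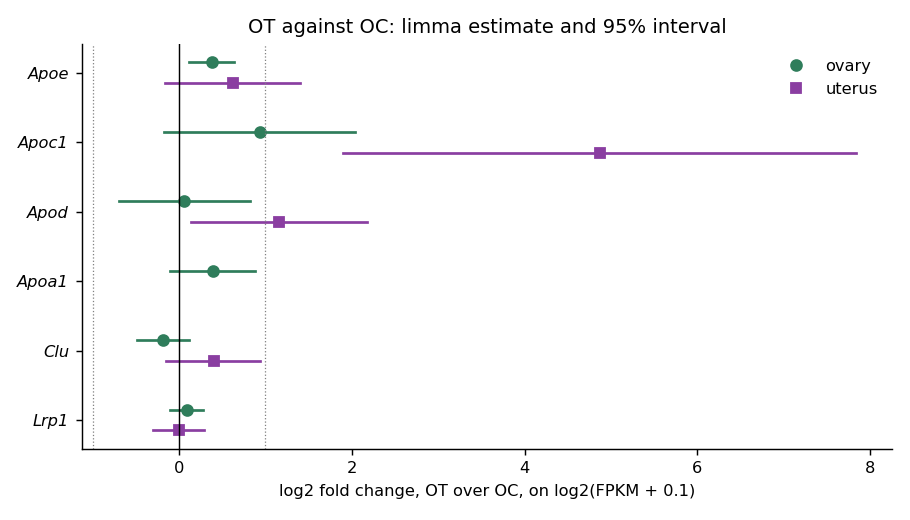
Log2 difference of OT over OC by limma with its 95% interval for the members tested, ovary in green circles and uterus in purple squares. Dotted lines mark the fold cutoff. Apob and, in the uterus, Apoa1 were under the minimum level and are not drawn. The Apoc1 interval in the uterus runs from 1.90 to 7.83. All Lrp1 and Clu intervals and the ovary intervals of Apoe, Apod and Apoa1 stay within the dotted lines.

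The response of Apoc1 also differed between the tissues. In a fit of all 14 libraries, the OT-over-OC difference of Apoc1 was larger in the uterus than in the ovary by 3.93 on the log2 scale (standard error 1.52, 95% interval 0.65 to 7.21, unadjusted p = 0.0225, adjusted p = 0.846 by limma). It was called, against 1.98% of 14913 genes called and 1.37% called higher, and no other member was. It was 2.26 without the OC1 uterus and 3.25 without the OT1 uterus. For Apod the response was larger in the uterus by 1.10 (95% interval -0.18 to 2.38), for Clu by 0.59 (95% interval -0.04 to 1.21) and for Apoe by 0.24 (95% interval -0.60 to 1.08). For Lrp1 it was 0.10 lower on the log2 scale in the uterus (95% interval of the difference -0.41 to 0.22). For Apoa1 the value of 1.59 rests on uteruses listed at 0.

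The next comparison set the tissues against each other within each group, and here a gene was called when it differed 2-fold or more with a Benjamini-Hochberg adjusted limma p below 0.05. In OC mice 3 of the 6 members tested were called, against 19.1% of 14913 genes, and in OT mice the same 3 genes, against 19.3%. Clu was higher in the ovary, 6.49-fold in OC mice (log2 difference of uterus from ovary -2.70, adjusted p = 1.05e-06 by limma) and 4.32-fold in OT mice (-2.11, adjusted p = 1.84e-06 by limma). Its lowest ovary, 205 FPKM, lay far above its highest uterus, 71.9 FPKM. Apod was higher in the uterus, 3.05-fold in OC mice (log2 difference 1.61, adjusted p = 0.0133 by limma) and 6.53-fold in OT mice (2.71, adjusted p = 0.0001 by limma), with a log2 difference of 2.30 in OT mice without the OT1 uterus. Without the OC1 ovary the OC difference of Apod was 1.27 with an adjusted p of 0.0689 by limma. Apoa1 was called higher in the ovary in both groups. It was listed at 0 in all OC uteruses, so no fold is given there, and in OT mice, where OT4 was also listed at 0, the log2 difference was -3.25 (adjusted p = 0.000188 by limma), -2.59 without the OT4 uterus. The size depends on the constant added, and ran from -1.77 with 1 FPKM added to -4.22 with 0.01 FPKM added.

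Apoe, Apoc1 and Lrp1 were not called between the tissues. Apoe was lower in the uterus by a log2 difference of -0.67 in OC mice (adjusted p = 0.0911 by limma) and -0.43 in OT mice (adjusted p = 0.197 by limma), both under the fold cutoff. In the OT1 and OT2 mice the uterus held as much or more Apoe than the ovary, and in the other 5 mice less. Apoc1 was lower in the uterus in all 3 OC mice and in OT2, and higher in OT1, OT3 and OT4. Its tissue difference was not called in OC mice (log2 difference -2.63, adjusted p = 0.0905 by limma), and rested on the OC1 uterus, listed at 0. It was -0.96 without that library (adjusted p = 0.387 by limma) and was called without the OC2 uterus (-3.58, adjusted p = 0.0408 by limma). It was not called in OT mice (1.3, adjusted p = 0.319 by limma), where it was 0.62 without the OT1 uterus. Lrp1 was higher in the ovary in 7 of 7 mice, by log2 differences under the fold cutoff (-0.30 in OC mice, adjusted p = 0.0474, and -0.39 in OT mice, adjusted p = 0.00478, both by limma). Clu and Apoa1 were higher in the ovary in 7 of 7 mice, Apod was higher in the uterus in 7 of 7 mice and Apob in 6 of 7.

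**Figure D4:**
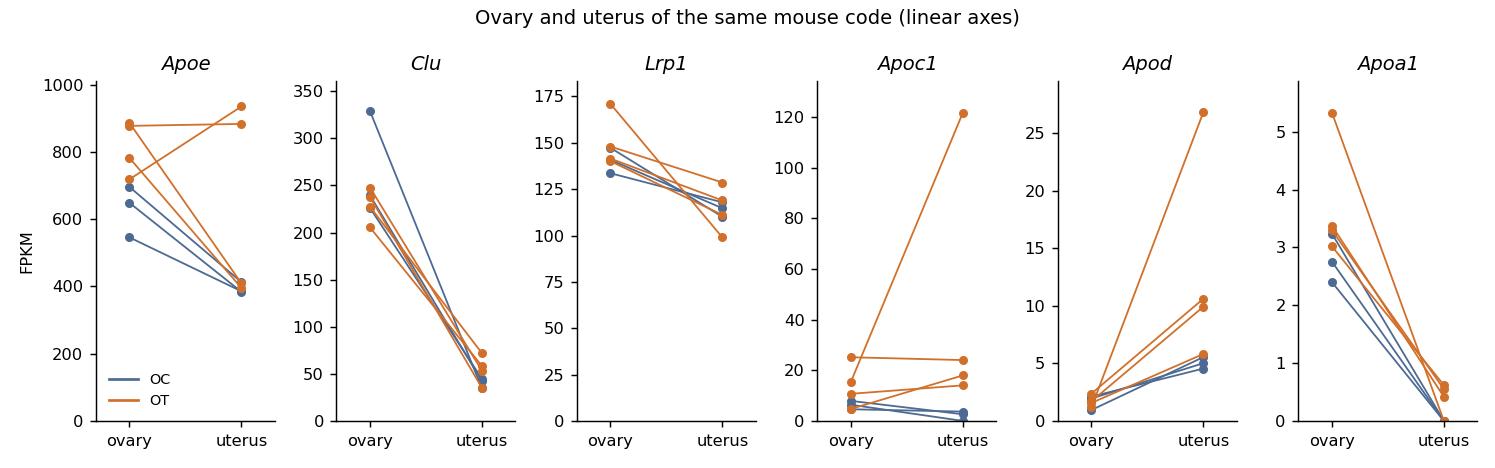
FPKM of 6 members in the ovary and the uterus, with lines that join libraries with the same mouse code, blue for OC and orange for OT, on linear axes that differ between panels. The Clu, Lrp1 and Apoa1 lines fall and the Apod lines rise from ovary to uterus in all 7 mice, while the Apoe and Apoc1 lines cross.

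The genes beside the members were read next, since Apoe and Apoc1 belong to a cluster on chromosome 7 and Apoa1 to a cluster on chromosome 9. Apoc2, which activates lipoprotein lipase, and Apoc4 lie 3′ of Apoc1 on the same strand, and both are overlapped by the annotated gene Gm44805, so their values are uncertain. Apoc2 reached 1.19 FPKM in OC and 1.95 FPKM in OT ovaries. In uteruses it reached 0.276 FPKM in OC and was at 1.27, 1.64, 1.98 and 0 FPKM in OT1 to OT4. The log2 difference in the uterus was 2.04 (unadjusted p = 0.108 by limma), not called. The OC mean of Apoc2 there, 0.134 FPKM, was under the 0.5 FPKM minimum, so it was tested only through the OT group. Apoc4 was at or under 1.00 FPKM in all libraries. Tomm40, which encodes a channel of the outer mitochondrial membrane and lies 2124 bases 5′ of Apoe, had a log2 difference of 0.42 in the uterus (unadjusted p = 0.141 by limma) and was at 24.6 to 31.0 FPKM in all 7 ovaries. Neither neighbour tested in the uterus was thus called beside Apoc1.

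In the cluster of Apoa1, Apoa4, an intestinal apolipoprotein, was at 0.943 to 4.81 FPKM in OC ovaries and 2.45 to 4.68 FPKM in OT ovaries and was listed at 0 in all 7 uteruses, the same tissue pattern as Apoa1 in OC mice. Apoc3, an inhibitor of lipoprotein lipase, was listed at 0 in all OC uteruses and reached 2.07 FPKM in OT uteruses and 2.19 FPKM in ovaries. Apoa5 did not pass 0.142 FPKM in any library.

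The other genes of lipoprotein handling were taken from 6 lists with 100 genes. In the uterus 73 could be tested, of which 5 were called higher and 1 lower, which is 8.22% against 2.9% of all genes there, with a median log2 difference of 0.08 against 0.01. In the ovary 78 could be tested, of which 2 were called higher and none lower, which is 2.56% against 0.451% of all genes called and 0.368% called higher, with a median of 0.00 against -0.01. Without the OT1 ovary no listed gene was called in the ovary, and in the uterus the number called ran from 4 to 10 without 1 library, with 4 without OT1, 10 without OT2 and 10 without OT4. The lists were chosen with results of these data known and their counts are a description.

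Among the lipases and their regulators, Lpl, the lipoprotein lipase that releases fatty acids at the vessel wall, rose in both tissues. Lpl was at 17.3 to 20.1 FPKM in OC and 22.7 to 81.4 FPKM in OT ovaries (log2 difference 1.22), and at 6.33 to 19.8 FPKM in OC and 54.1 to 425 FPKM in OT uteruses (3.48, unadjusted p = 0.000791, adjusted p = 0.357 by limma). Without OT1 it was 0.93 in the ovary, no longer called, and 2.93 in the uterus, still called. Gpihbp1, which anchors that lipase on capillaries, rose in the uterus, from 2.45 to 3.51 FPKM in OC to 4.38 to 23.1 FPKM in OT libraries (1.46, unadjusted p = 0.0268 by limma), but was not called without OT1 (0.95), OC2 (1.36), OC3 (1.41) or OT3 (1.43). Of the 9 genes of this list tested in each tissue, these were the ones called, with 8 not called in the ovary and 7 in the uterus. Angptl4, a secreted inhibitor of lipoprotein lipase, was singled out after its values were seen. It ran from 27.4 to 32.2 FPKM in OT ovaries and from 43.9 to 48.9 FPKM in OC ovaries. The log2 difference was -0.61, under the fold cutoff, with the smallest adjusted p of the ovary, 0.477 by limma. How many of all genes lay lower in every OT ovary was not counted.

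Among receptors, no member of the LDL receptor family was called and the scavenger receptor Cd36 rose in both tissues. Cd36, which takes up fatty acids and oxidized lipoproteins, was at 19.4 to 28.1 FPKM in OC and 34.4 to 120 FPKM in OT ovaries (log2 difference 1.31), and at 24.3 to 44.3 FPKM in OC and 89.2 to 478 FPKM in OT uteruses (2.28, unadjusted p = 0.00292 by limma). Without OT1 it was 0.96 in the ovary, no longer called, and 1.78 in the uterus, still called. The other 19 receptors tested in the ovary and 17 in the uterus were not called. Scarb1, the HDL receptor of steroid-producing cells, stood at a mean of 482 ± 41.7 FPKM (SD, n = 3) in OC ovaries and 484 ± 79.1 FPKM (SD, n = 4) in OT ovaries. Vldlr (-0.17 and -0.11), Lrp5 (0.03 and 0.02), Lrp6 (-0.02 and -0.04) and Lrp10 (0.07 and 0.00) lay near 0 on the log2 scale in both organs, ovary first, as Lrp1 did. Other receptors of the family differed more in the uterus. Lrp2 had a mean of 23.1 FPKM in OC (4.92 to 59.5 FPKM) and 5.45 FPKM in OT uteruses. Lrp11 ran from 1.46 to 1.96 FPKM in OC and from 1.98 to 2.90 FPKM in OT uteruses. Lrp8, under the minimum there, ran from 0 to 0.203 FPKM in OC and from 0.347 to 0.539 FPKM in OT uteruses. The receptors other than Cd36 were picked after their values were seen, and those near 0 do not stand for the whole family.

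Of 14 other apolipoproteins tested in the ovary none was called, and of 11 in the uterus Apol6, an intracellular apolipoprotein L, was called higher, from 0.263 to 1.14 FPKM in OC to 4.25 to 39.5 FPKM in OT libraries (log2 difference 3.80, unadjusted p = 0.000918, adjusted p = 0.357 by limma) and was 3.17 without OT1. None of the 10 receptor chaperones, adaptors and turnover genes and none of the 12 genes for lipid loading of apolipoproteins was called in either tissue. Of the 13 other ligands and proteinase partners of LRP1 tested in each tissue none was called in the ovary and 2 in the uterus. Of these Ccn2, connective tissue growth factor, fell (23.7 to 33.4 FPKM in OC, 7.03 to 17.4 FPKM in OT, log2 difference -1.16, unadjusted p = 0.00571 by limma), with -1.11 without OT1 and, no longer called, -0.90 without OT2. Lpl, Cd36 and Gpihbp1 are also expressed in adipose tissue, whose markers are given above beside Apoc1, and their part in these values was not tested.

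**Figure D5:**
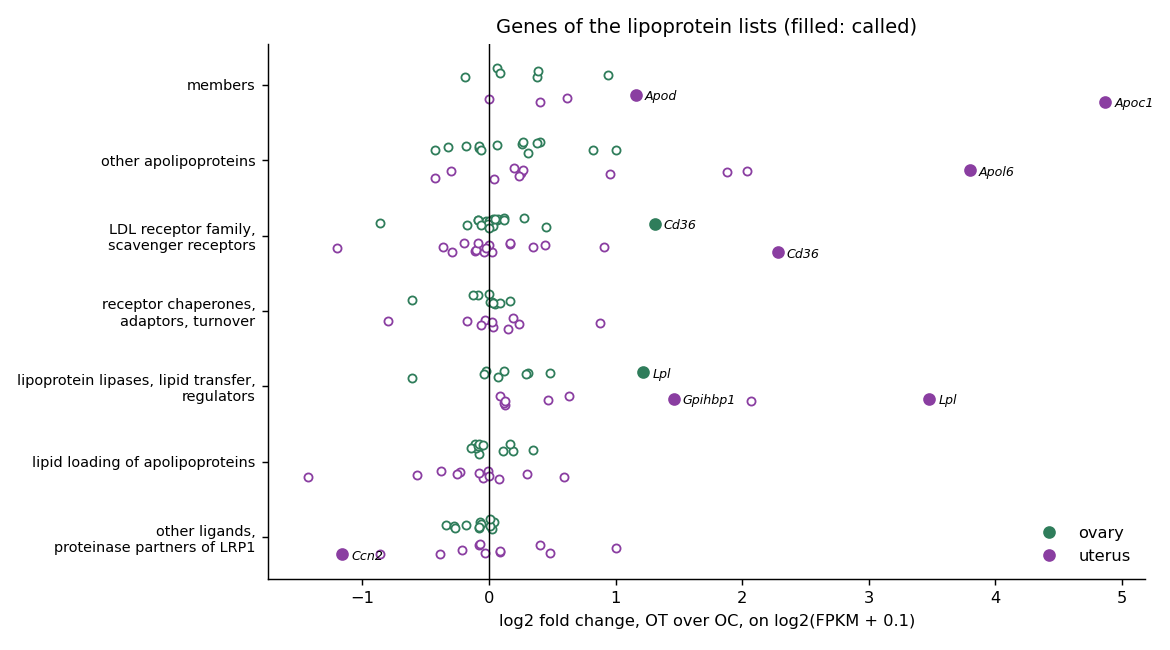
Log2 difference of OT over OC by limma for the tested genes of the member list and the 6 lists of lipoprotein handling, without 2 that are not reported here, ovary in green and uterus in purple. Filled points passed both cutoffs and are named, and open points did not. Most genes lie near 0, and the named genes are Apoc1, Apod, Apol6, Cd36, Lpl, Gpihbp1 and Ccn2.

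The genes most like each member were found by Pearson's r over the 14 libraries, after the mean of each tissue was subtracted from log2(FPKM + 0.1), among 13642 genes. The 14 libraries come from 7 mice and share the group difference, so these coefficients are a description. Apoe was most like Fcgr2b (r = 0.969, Spearman's rho 0.903), an inhibitory Fc receptor, and C1qc (r = 0.934, rho 0.912) and C1qb (r = 0.931, rho 0.899), subunits of complement C1q that macrophages make. Without the 2 libraries farthest from the median of Apoe, r was 0.912, 0.823 and 0.771. Apoc1 was most like Slc36a2 (r = 0.963, rho 0.947), a proton-coupled amino acid transporter on the adipocyte list, then Serpina3c (r = 0.957, rho 0.899) and Mgst2 (r = 0.936, rho 0.793). Apod was most like Sparc (r = 0.956, rho 0.877), a matrix protein of stroma and fat, then Frmd6 (r = 0.952, rho 0.807) and Ndufv3 (r = 0.94, rho 0.925). Clu was most like Tmem159 (r = 0.917, rho 0.908), Fancb (r = 0.9, rho 0.837) and Phospho1 (r = 0.896, rho 0.789). Lrp1 was most like Fam129a (r = 0.916, rho 0.82), Atp13a2 (r = 0.911, rho 0.67) and Mink1 (r = 0.909, rho 0.767). The members thus differed in their nearest genes, and no gene was named for more than 1 of them.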

How the data were processed

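The authors prepared stranded, rRNA-depleted libraries, trimmed reads with Skewer 0.2.2, mapped them to mm10 with STAR 2.5 and deposited gene-level FPKM from Cufflinks 2.2.1, per the labels and the methods. A UCSC annotation was named, but the identifiers are versioned Ensembl ones, and 21853 of 21853 matched GENCODE M21 (GRCm38), which gave symbols and positions. Cuffdiff needs the reads and was not run. FPKM hold no depth: values go down to 1.03e-310, and whole reads could not be recovered, so no counting interval is given and the number of mice limits the precision.

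Groups and replicates came from the labels, and replicates were separate mice. FPKM were not scaled further. Genes averaging 0.5 FPKM or more over a tissue's 7 libraries were fitted with limma 3.58.1 (R 4.3.3, eBayes with trend) on log2(FPKM + 0.1), and in the tissue and interaction comparisons all 14 libraries were fitted together, with genes past the minimum in either tissue. Adjusted p are Benjamini-Hochberg over all genes tested. Genes under the minimum were tested by an exact two-sided permutation test in scipy 1.17.1. The limma scripts were first checked on values with known changes. Tables were made in Python 3.11.15 with numpy 2.4.6 and pandas 2.3.3, and figures with matplotlib 3.10.9. Fold changes on this scale understate those of low genes.

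The members, lists and tests were chosen with earlier results of these data known. Genes named were the 7 members, called genes of each list (up to 4 per tissue), their cluster neighbours, the 3 genes listed first or called in a marker list and the 3 most like each member, unless said otherwise. Library names give both tissues the same mouse code. Same-mouse deviations from the group means had r of 0.074 to 0.2543, and a fit with the mouse as a block (consensus correlation 0.0683) is given as an alternative. Other alternatives changed the constant, the minimum and the scaling, fitted both tissues at once, used the replicate number as a block or left out each library in turn. Some genes of the lists enter the counts but are not reported here by name.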

Additional observations from a re-analysis of the deposited data

Results flagged for a closer look

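In 14 groups of 4 OT libraries a library far from the others was looked for. For normally distributed values chance gives this in about 1 in 20 groups. The rate for FPKM, which are skewed and hold values of 0, is not known. Apoc1 in the OT1 uterus, 121.8 FPKM, stood apart from 14.1 to 24.0 FPKM in the other OT uteruses, with a gap of 0.907 of the range. Apoa1 in the OT4 ovary, 5.332 FPKM, stood apart from 3.02 to 3.38 FPKM in the other OT ovaries (0.846 of the range). Apob in the OT4 ovary, 0.008554 FPKM, was picked out only because the other OT ovaries were listed at 0, which makes the gap the whole range.

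The OT response of Apoc1 was larger in the uterus than in the ovary by 3.93 on the log2 scale by a test of the difference itself (unadjusted p = 0.0225, adjusted p = 0.846 by limma).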

How the results depend on the processing

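Over single members and comparisons, 516 values kept their direction and side of the threshold, 8 passed it, 6 lost it and 6 turned in sign. The sign turned for Apod in the ovary without OC1 (-0.28) or OT2 (-0.10), with a range of -0.28 to 0.26 without 1 library, and for Lrp1 in the uterus without OC2 (0.02), OT1 (0.06) or OT4 (0.01) and with the replicate block (0.01), where the range without 1 library was -0.06 to 0.06. All genes called in the ovary numbered 65, against 42 with a minimum of 1 FPKM, 159 with none, 18 with 1 FPKM added, 105 with the replicate block and 51 to 137 without 1 library, the most without OT3. In the uterus they numbered 410, against 259 with 1 FPKM added, 666 with the replicate block and 295 to 605 without 1 library. The block leaves out OT4, and OC and OT mice that share a number are different mice whose deviations correlated at 0.0219 to 0.3352 in the ovary and -0.0112 to 0.0761 in the uterus, so the pairing is only a shared number. Members called went from 0 to between 0 and 1 in the ovary (Apoc1 without OT3) and from 2 to between 1 and 2 in the uterus without 1 library. With no minimum, 3 were called in the uterus (Apoa1 besides, listed at 0 in all OC uteruses). The interaction called 1 member, 2 with 0.01 FPKM added or with FPKM rescaled to equal totals (Apoa1 besides Apoc1), and 1 to 3 without 1 library, the most without the OT4 uterus. Members called between the tissues numbered 3 in each group, 2 to 4 without 1 library in OC mice and 4 in OT mice with no minimum (Apob besides), and the mouse block changed no member's call there. Why these values moved was not tested. A low level limits what can be said of Apob, and of Apoa1 in the uterus.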

Other observations

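After the tissue means were subtracted, the members were also set against each other over the 14 libraries, which come from 7 mice and share the group difference. Pearson's r was 0.604 between Apoe and Apoc1, which lie side by side on chromosome 7, 0.678 between Apoe and Apod and 0.641 between Apoc1 and Apod. Without the 2 libraries farthest from the median it was 0.343, 0.386 and 0.476. Clu had r of 0.649 with Apoc1, and 0.208 without the 2 farthest libraries. Lrp1 had r of 0.052 with Apoe, 0.038 with Apoc1, -0.435 with Apod and -0.091 with Clu, and 0.189, 0.513, -0.039 and 0.386 without the 2 farthest libraries. These are descriptions of the same libraries that the comparisons use.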
